A study of Mus musculus with 8 samples.

Results

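The mitochondrial genome of the mouse carries 37 genes, and all 37 were taken here as the rows whose gene symbol starts with mt-, out of 55401 genes in each table. They comprised 13 mRNAs, 2 rRNAs and 22 tRNAs. Their values were compared between 4 control dishes and 4 dishes of AML12 cells cultured for 1 h under Opti-ELF-WMF, pulses of a faint magnetic field with a peak of 100 mG (10 µT), a width of 4 ms and a frequency rising from 1 to 8 Hz. AML12 is an immortalised line of mouse hepatocytes whose donor animal carried a transgene for human TGF-alpha, and dishes of both groups held this line and came from 1 batch of cells. Control and exposed dishes were kept in separate incubators, with the pulse device of the controls turned off, so the incubator and the exposure cannot be told apart. RNA was sequenced after poly(A) selection, and each value is a TPM, the reads of a gene divided by its length and scaled so that all genes of a dish sum to 1000000.

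The genome is a small circle that is copied into RNA from both strands as long precursors. Both rRNAs, 12 of the 13 mRNAs and 14 of the 22 tRNAs are read from the heavy strand, and mt-Nd6 and 8 tRNAs from the light strand. The tRNAs lie between the other genes, and cutting them out of the precursor releases the mRNAs and rRNAs. The mRNAs encode core subunits of respiratory complexes I, III and IV and of the ATP synthase, complex V, and the rRNAs and tRNAs serve the ribosome that translates them inside the organelle. Mitochondrial poly(A) tails are short and differ between the RNAs, so levels after poly(A) selection are not amounts in the cell.

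Sequences below are those of GRCm38, whose chromosome M positions are used throughout. The first set shows where neighbouring mRNA genes share more than 1 base, since a read from such a stretch belongs to both. Capitals mark the shared bases: 43 between mt-Atp8 and mt-Atp6, 7 between mt-Nd4l and mt-Nd4, and 14 between mt-Nd5 and mt-Nd6. The last 2 genes lie on opposite strands, so their capitals are reverse complements of each other.
mt-Atp8, whole gene (chrM:7766-7969, + strand): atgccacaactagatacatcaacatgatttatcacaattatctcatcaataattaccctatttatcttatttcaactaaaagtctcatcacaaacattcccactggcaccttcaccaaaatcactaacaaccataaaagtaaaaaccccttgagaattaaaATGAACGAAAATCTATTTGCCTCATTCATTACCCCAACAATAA
mt-Nd4l, last 60 bases (chrM:10114-10173, + strand): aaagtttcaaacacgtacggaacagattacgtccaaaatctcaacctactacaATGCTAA
mt-Nd5, last 60 bases (chrM:13506-13565, + strand): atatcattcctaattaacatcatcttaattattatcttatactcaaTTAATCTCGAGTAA
mt-Nd6, last 60 bases (chrM:13552-13611, - strand): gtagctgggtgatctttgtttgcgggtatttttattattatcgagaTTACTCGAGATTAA
The end of mt-Co3 shows another feature of these mRNAs. Its coding sequence stops 1 base into a codon, marked by the capital, and the stop codon is completed when the tail is added. By annotated length, 3 of the 13 mRNAs (mt-Co3, mt-Nd4 and mt-Cytb) ended 1 base into a codon. The annotated ends of mt-Nd1 and mt-Nd2 run into the tRNA genes mt-Ti and mt-Tw, so the count may be too low.
mt-Co3, last 60 bases (chrM:9331-9390, + strand): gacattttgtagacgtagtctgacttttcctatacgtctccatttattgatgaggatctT
The strands also differ in base composition. Among the 12 mRNAs read from the heavy strand, G made up 5.88% to 16.1% of bases and C 22.1% to 29.97%, whereas mt-Nd6 held 28.1% G and 5.97% C.

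The tables listed 15 of the 37 genes above 0, namely the 13 mRNAs and both rRNAs, and these 15 also met the limit for testing (TPM of at least 1 in at least 4 dishes). All 22 tRNAs, 14 read from the heavy strand and 8 from the light strand, were listed at 0 in all 8 dishes. The tRNA genes measured 59 to 75 bases, less than the read length of 150 bases, so a value of 0 does not speak of the tRNA itself. The first gene on the map, mt-Tf for phenylalanine, is shown whole as an example of their size.
mt-Tf (chrM:1-68, + strand): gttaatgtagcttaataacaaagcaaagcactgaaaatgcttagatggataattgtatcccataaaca

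In the tables as deposited, each of the 15 tested genes had a lower mean in Opti-ELF-WMF dishes than in control dishes, on log2(TPM + 1) by between -0.64 for mt-Nd4l and -0.27 for mt-Co2, with a median of -0.38. The median over all 12122 tested genes was 0.026, and 36.3% of them had a negative value. All 15 were at -0.25 or lower, a limit that was not planned and lies just above the value of mt-Co2, as were 2.48% of tested genes. By limma with Benjamini-Hochberg adjustment over all tested genes, 0 of the 15 passed a threshold of 0.05 (adjusted p = 0.122 to 0.248), nor did any other gene (0%). Without adjustment, 15 of the 15 were lower with a p-value under 0.05, against 3.65% of all tested genes. With every gene above 0 kept in the fit the count was 14, since mt-Atp8 then had an unadjusted limma p of 0.0618. In 11 of the 15, the highest exposed dish lay below the lowest control dish, which was so for 1.86% of all tested genes. The 15 values are not independent, because the genes are cut from shared precursors and TPM scales all genes of a dish together.

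TPM states a share of the RNA in a library, so less mitochondrial RNA and more of other RNA cannot be told apart, and in RNA from a whole dish fewer cells of a kind and less RNA per cell cannot be told apart either. The direction of calls over all genes moved with the scaling: 443 genes were lower and 1451 higher with an unadjusted p-value under 0.05 in the deposited values. Scaling by median of ratios gave 754 (6.22%) and 671 (5.54%), and rescaling each dish to its TPM outside mitochondrial genes and copies gave 973 (7.90%) and 397 (3.22%). With that rescaling 12 of the 15 mitochondrial genes had no overlap, against 4.90% of all tested genes. All 15 mitochondrial genes kept a negative value under these scalings. Depth is unknown, since TPM keeps none. Between 19386 and 20114 genes lay above 0 per dish. Equal values made up 1.48% to 3.79% of genes above 0 in any pair, so no sample repeats the values of another. Whether the samples are separate dishes cannot be read from this, and each was counted as 1 dish.

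**Figure D1:**
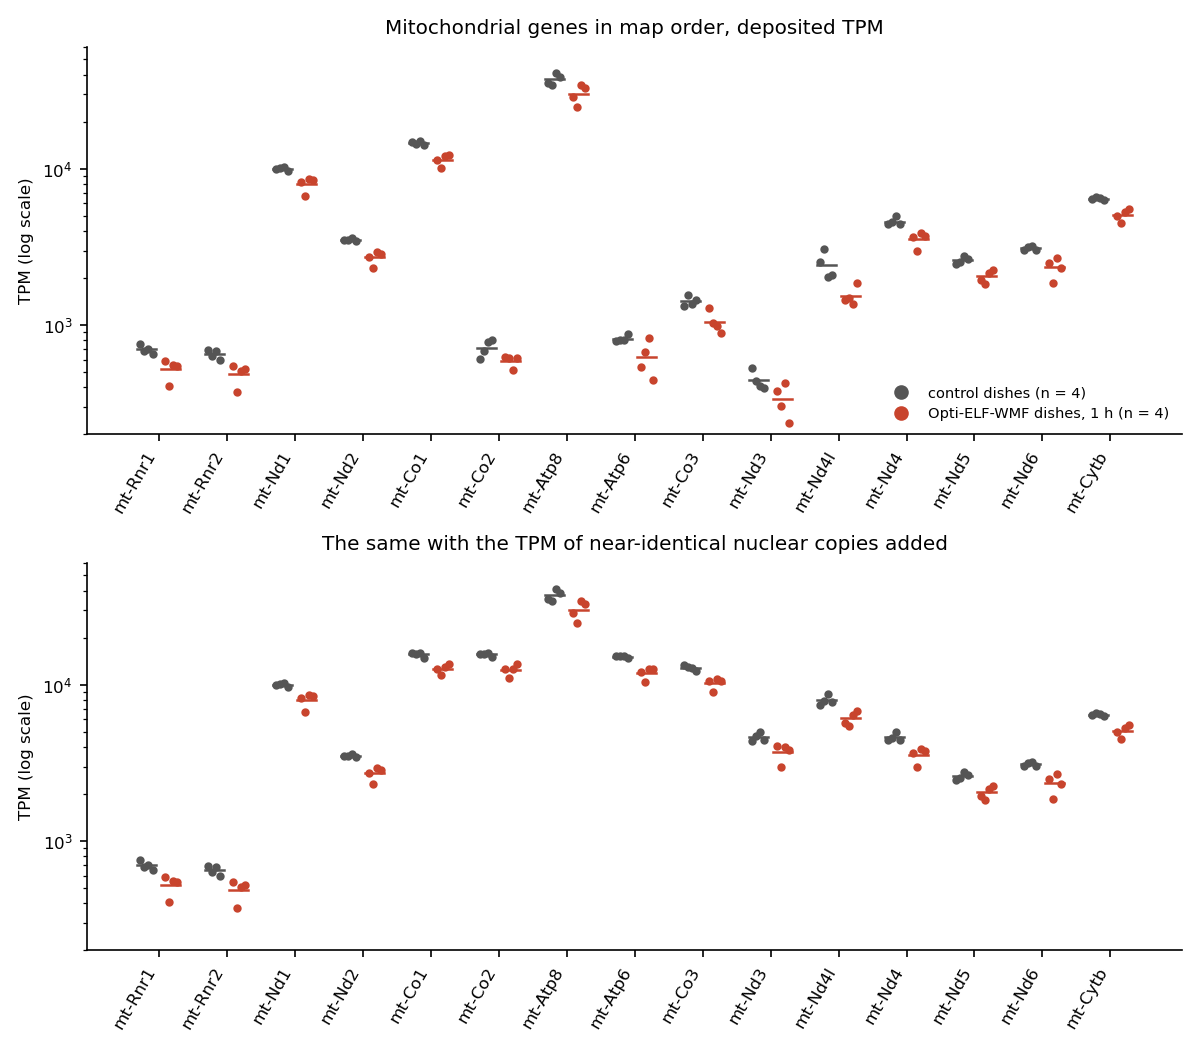
TPM of the 15 mitochondrial genes listed above 0, in map order, on a log axis, for 4 control dishes (grey) and 4 Opti-ELF-WMF dishes (red), with lines at group means. The upper panel shows deposited values, where 11 of 15 genes have no overlap between groups, and the lower panel adds the TPM of near-identical nuclear copies, where 14 do.

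The rRNAs lie near the heavy-strand promoter. mt-Rnr1 (chrM:70-1024), the RNA of the small ribosomal subunit, read 763, 684, 703 and 649 TPM in control replicates 1 to 4 and 592, 409, 555 and 546 TPM in Opti-ELF-WMF replicates 1 to 4. All exposed dishes lay below all control dishes, and replicate 2 was the lowest. The log2 fold change was -0.42 (SE 0.10, adjusted p = 0.129, limma). mt-Rnr2 (chrM:1094-2675), the RNA of the large subunit, read 689, 637, 683 and 603 TPM in control dishes and 547, 376, 511 and 522 TPM in exposed dishes. Its groups again did not overlap, and its log2 fold change was -0.43 (SE 0.10, adjusted p = 0.131, limma). Both rRNAs thus stood at about the same percentage of their control means, 75.1% for mt-Rnr1 and 74.9% for mt-Rnr2.

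The mitochondrial genome encodes 7 membrane-arm subunits of complex I, the NADH dehydrogenase, and 6 of these 7 mRNAs did not overlap between groups. mt-Nd1 (chrM:2751-3707) is the first mRNA after the rRNAs. It read 9989, 10141, 10289.6 and 9667 TPM in control dishes and 8175, 6739, 8564 and 8481 TPM in exposed dishes, and its log2 fold change was -0.33 (SE 0.07, adjusted p = 0.122, limma). All 4 exposed dishes were lower than the lowest control dish, and replicate 2 was lowest again. mt-Nd2 (chrM:3914-4951) was listed at 3481, 3503, 3606 and 3431 TPM in control dishes and at 2729, 2329, 2921 and 2863 TPM in exposed dishes. With -0.38 (SE 0.06, adjusted p = 0.122, limma) it showed the same order of dishes. mt-Nd4 (chrM:10167-11544) read 4401, 4542, 4971 and 4448 TPM without and 3654, 2977, 3862 and 3742 TPM with exposure, and mt-Nd5 (chrM:11742-13565), the longest mitochondrial mRNA, read 2470.5, 2530.0, 2766 and 2665 TPM without and 1939.5, 1842, 2158 and 2254 TPM with exposure. Neither overlapped, at -0.37 (SE 0.08) and -0.35 (SE 0.06) on the log2 scale, each with an adjusted p of 0.122 by limma.

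mt-Nd4l (chrM:9877-10173), a small complex I subunit whose reading frame runs into that of mt-Nd4, had the most negative value of the 15 genes. Control dishes read 2551, 3071, 2019 and 2086 TPM and exposed dishes 1448, 1502, 1373 and 1848 TPM. The groups did not overlap, but control dishes spread more widely than for mt-Nd4, and the log2 fold change was -0.64 (SE 0.13, adjusted p = 0.122, limma). mt-Nd3 (chrM:9459-9806) was the one complex I mRNA with overlapping groups. Its TPM was 534, 442, 409 and 399 in control dishes and 378, 304, 425 and 237 in exposed dishes, and exposed replicate 3 lay above 2 of the control dishes. Its log2 fold change was -0.43 (SE 0.17, adjusted p = 0.248, limma), and -0.28 without exposed replicate 4. Both genes share nearly all their bases with nuclear genes, as described further on, and their own values depended on how reads were divided.

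mt-Nd6 (chrM:13552-14070) is the only mitochondrial mRNA read from the light strand. It read 3024, 3136, 3199 and 3003 TPM in control dishes and 2498, 1865, 2673 and 2336 TPM in exposed dishes. The exposed dishes lay below the control dishes without overlap, at a log2 fold change of -0.41 (SE 0.09, adjusted p = 0.122, limma), against a median of -0.36 over the 12 mRNAs from the heavy strand. The library kit marks strand, but the sources used here do not give whether strand was used in counting. In genes of 1 exon that lie within introns of genes with at least 50 TPM, the median was 0.0706 TPM for 166 genes on the strand of the host and 0.0813 TPM for 28 genes on the opposite strand. If strand was not used, reads of heavy-strand RNA across mt-Nd6 cannot be told apart from those of mt-Nd6.

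Complex III takes 1 subunit from the mitochondrial genome, cytochrome b. Its mRNA, mt-Cytb (chrM:14145-15288), is the last on the heavy-strand map. It read 6403, 6567, 6506 and 6284 TPM in control dishes and 4996, 4490.1, 5318 and 5493 TPM in exposed dishes, with no overlap. The mean was 6440.1 ± 124 TPM in control dishes and 5074 ± 440.5 TPM in exposed dishes (SD, n = 4 each), or 78.8% of the control mean. Its log2 fold change of -0.35 (SE 0.06, adjusted p = 0.122, limma) was close to that of mt-Nd1 at the other end of the map.

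Complex IV, cytochrome c oxidase, has its 3 core subunits encoded here. mt-Co1 (chrM:5328-6872) encodes the catalytic subunit. Its values per dish were 14714, 14464, 14968 and 14226 TPM in the control group and 11375, 10085, 12049 and 12263 TPM in the exposed group. No dishes overlapped, and the log2 fold change was -0.35 (SE 0.06, adjusted p = 0.122, limma). mt-Co2 (chrM:7013-7696), for the subunit that takes electrons from cytochrome c, read only 605, 680.3, 782 and 800.4 TPM in control dishes and 622, 618, 516 and 620.2 TPM in exposed dishes. Control replicate 1 lay below 3 of the exposed dishes, and the log2 fold change was -0.27 (SE 0.09, adjusted p = 0.21, limma). mt-Co3 (chrM:8607-9390), the third core subunit, read 1333, 1561, 1366 and 1457 TPM in control dishes and 1285, 1029.9, 992 and 885 TPM in exposed dishes. Its groups did not overlap, at -0.46 (SE 0.10, adjusted p = 0.122, limma).

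The ATP synthase takes 2 subunits from the mitochondrial genome, and both mRNAs overlapped between groups. mt-Atp8 (chrM:7766-7969), for a small subunit of the membrane part, had the highest TPM of the mitochondrial genes, with 35492, 34121, 41102 and 38721 in control dishes and 28803, 24664, 34127 and 32633 in exposed dishes. Exposed replicate 3 reached just above the lowest control dish, and the log2 fold change was -0.32 (SE 0.10, adjusted p = 0.173, limma). mt-Atp6 (chrM:7927-8607), for the subunit that forms the proton channel, is carried on the same mRNA as mt-Atp8. It was nevertheless listed far lower, at 787, 806, 807 and 877 TPM in control dishes and 542, 676, 825 and 444 TPM in exposed dishes. Exposed replicate 3 lay among the control dishes, and the log2 fold change of -0.43 had an SE of 0.16 and an adjusted p of 0.223 by limma. It was -0.29 without exposed replicate 4 and -0.58 without exposed replicate 3. mt-Atp8 is the shortest mRNA at 204 bases, and a TPM rests on dividing by length, so its level beside that of longer genes is less certain than its ratio between dishes.

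Exposed replicate 2 was the lowest exposed dish in 10 of the 15 genes, replicate 4 in 3 and replicate 3 in 2. The median log2 deviation of the 15 genes from their control means was -0.33, -0.57, -0.27 and -0.29 in exposed replicates 1 to 4, so that each exposed dish lay below the control level and replicate 2 farthest. Without exposed replicate 2, limma gave mt-Nd1, mt-Nd2, mt-Co1 and mt-Cytb an adjusted p of 0.0465 each, and the median over the 13 mRNAs went from -0.37 to -0.30. The 4 genes were -0.25, -0.31, -0.30 and -0.29 in that fit, less negative than with all dishes. For all 15 genes the log2 fold change stayed negative with any 1 dish left out.

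**Figure D2:**
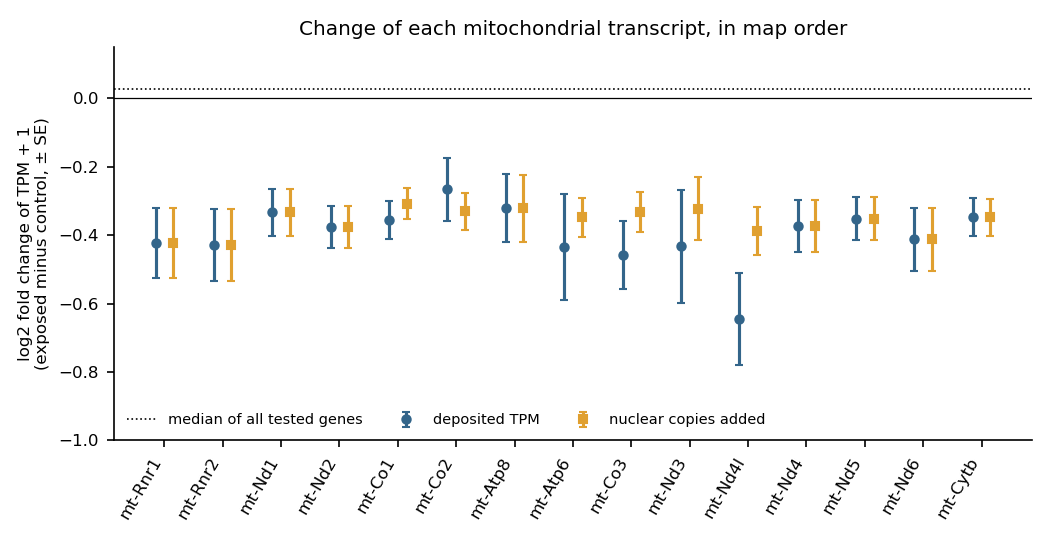
Log2 fold change of TPM + 1 (exposed minus control, ± SE by limma) of the 15 mitochondrial genes in map order, deposited (blue) and with nuclear copies added (orange), with a dotted line at the median of all tested genes, 0.026. Deposited values run from -0.64 to -0.27, and with copies added they run from -0.43 to -0.31.

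The nuclear genome holds stretches copied from mitochondrial DNA, and several of them are annotated as genes. By BLAST, 11 nuclear genes matched a mitochondrial gene at 95% identity or more across 80% or more of their own transcript. On chromosome 1, Gm28661 (mt-Co2), Gm10925 (mt-Atp6), Gm28437 (mt-Co3) and Gm10222 (mt-Nd4l) were 100% identical to their mitochondrial gene over 681, 678, 783 and 294 bases. The 2 ends below show how little separates such a pair: mt-Co2 has 3 more bases, in capitals, than its annotated copy.
mt-Co2, last 60 bases (chrM:7637-7696, + strand): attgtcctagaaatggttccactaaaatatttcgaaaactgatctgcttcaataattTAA
Gm28661, last 57 bases (chr1:24614885-24614941, - strand): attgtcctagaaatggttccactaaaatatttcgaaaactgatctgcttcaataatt
Gm28438 differed from mt-Nd3 at 1 of 345 bases, and Gm29216 from mt-Co1 at 1 of 483. The substitutions were T3C and A1066T, with positions counted from 1 at the 5′ end of the mitochondrial gene, whose base is given first. They are shown in capitals.
mt-Nd3 (chrM:9459-9490, + strand): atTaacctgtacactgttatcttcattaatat
Gm28438 (chr1:24613088-24613119, - strand): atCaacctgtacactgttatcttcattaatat
mt-Co1 (chrM:6390-6422, + strand): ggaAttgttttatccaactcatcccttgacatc
Gm29216 (chr1:24616156-24616188, - strand): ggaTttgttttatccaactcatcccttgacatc

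For 5 mitochondrial genes most of the summed TPM of gene and copy was listed under the nuclear copy. The copy held 95.3% for mt-Co2, 94.7% for mt-Atp6, 90.6% for mt-Nd3, 89.3% for mt-Co3 and 71.7% for mt-Nd4l. These 5 include the 3 mRNAs with the lowest levels. For mt-Co1 the copy Gm29216 held 7.95%, and for every other gene the copies held at most 0.264%. Gm28661 was listed at 14881 ± 386 TPM in control dishes and 11845 ± 1048 TPM in exposed dishes (SD, n = 4 each), both far above the values of mt-Co2. Reads from identical stretches cannot be assigned to either gene, so the split between a gene and its copy is uncertain, and their sum is given beside it.

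With the TPM of copies added, the values drew together. mt-Co2 then read 15784, 15639.8, 15880.1 and 15125 TPM in control dishes and 12534, 11076, 12549 and 13622 TPM in exposed dishes. mt-Atp6 read 15292, 15242, 15349.9 and 14714 TPM in control dishes and 12054, 10384, 12630.0 and 12687 TPM in exposed dishes. Both genes now separated the groups without overlap, with log2 fold changes of -0.33 and -0.35. mt-Nd4l read 7452, 7881, 8676 and 7785 TPM in control dishes and 5702, 5449, 6445 and 6752 TPM in exposed dishes, and its log2 fold change went from -0.64 to -0.39. mt-Co3 went to -0.33 and mt-Nd3 to -0.32. mt-Co1 became -0.31, although its copy covers 483 of its 1545 bases, so that this sum is an overstatement.

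Over the 15 genes with copies added, log2 fold changes spanned -0.43 to -0.31, and exposed means were between 74.9% (mt-Rnr2) and 80.9% (mt-Co1) of control means. In 14 of 15 the groups did not overlap, against 1.85% of all genes tested with copies added, and 15 of 15 were lower with an unadjusted p-value under 0.05, against 3.62%. mt-Atp8 was the one gene with overlap. Adjusted p-values by limma were 0.118 to 0.170. The 6 genes with no annotated copy found (mt-Rnr1, mt-Rnr2, mt-Nd1, mt-Atp8, mt-Nd6 and mt-Cytb) had a median of -0.38 in the deposited values, and 5 of them did not overlap. Only annotated transcripts were searched, so copies outside them are not excluded. mt-Atp8 shares 43 bases with mt-Atp6 and lies between mt-Co2 and mt-Atp6 on the map. The copies of these 2 neighbours, Gm28661 (chr1:24614885-24615565) and Gm10925 (chr1:24613974-24614651), lie near each other, and the bases between them were not searched. Exposed replicate 2 was the lowest exposed dish in 15 of 15 genes with copies added.

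By RNA class, the median log2 fold change in the deposited values was -0.37 for the 13 mRNAs and -0.43 for the 2 rRNAs, and by complex it was -0.38 for 7 mRNAs of complex I, -0.35 for 3 of complex IV and -0.38 for 2 of complex V, beside -0.35 for mt-Cytb of complex III. By position, the 3 heavy-strand mRNAs up to mt-Co1 had a median of -0.35 and the 3 from mt-Nd4 to mt-Cytb likewise -0.35. Across the 12 heavy-strand mRNAs, which share dishes and precursors, Spearman's rho of log2 fold change against start position was -0.238 for deposited values and -0.378 with copies added. This is a description over genes of 1 comparison and not a test.

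Ratios between neighbouring or opposite transcripts were compared directly, in 9 pairs taken from the map, by an exact two-sided permutation test over the 70 assignments of 8 dishes, whose smallest p-value is 0.0286. Adjusted by Benjamini-Hochberg over the 9 pairs, 1 pair alone could not go below 0.257, and at least 6 pairs at the smallest p would be needed for any to pass 0.05, so the differences are given by their size and interval. The adjusted exact p-values were 0.836 to 0.857. The intervals below are 95% confidence intervals of the difference in log2 ratio, exposed minus control, and give the range of differences that 4 dishes per group left possible. Between genes annotated on opposite strands, mt-Nd6 to mt-Nd5 differed by -0.060 (-0.29 to 0.17) and mt-Nd6 to mt-Cytb by -0.064 (-0.25 to 0.12). If strand was not used in counting, mt-Nd6 also takes reads of heavy-strand RNA, and these ratios need not compare the strands. Within the rRNAs the interval was narrow, -0.0048 (-0.067 to 0.058) for mt-Rnr2 to mt-Rnr1. Between classes, mt-Nd1 to mt-Rnr2 differed by 0.096 (-0.061 to 0.25). Along the heavy strand, the late genes kept close to mt-Nd1, at -0.015 (-0.088 to 0.058) for mt-Cytb and -0.018 (-0.16 to 0.13) for mt-Nd5.

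The remaining pairs hold a gene whose reads are shared with a copy, and their intervals were wide in the deposited values. mt-Atp8 to mt-Atp6, both on 1 mRNA, differed by 0.11 (-0.45 to 0.67), and with copies added by 0.027 (-0.17 to 0.22). mt-Nd4l to mt-Nd4, also on 1 mRNA, differed by -0.27 (-0.77 to 0.23), and with copies added by -0.015 (-0.15 to 0.12). mt-Co1 to mt-Co3 differed by 0.10 (-0.29 to 0.49), and with copies added by 0.026 (-0.053 to 0.10). Adding the copies brought all 3 differences nearer to 0.

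**Figure D3:**
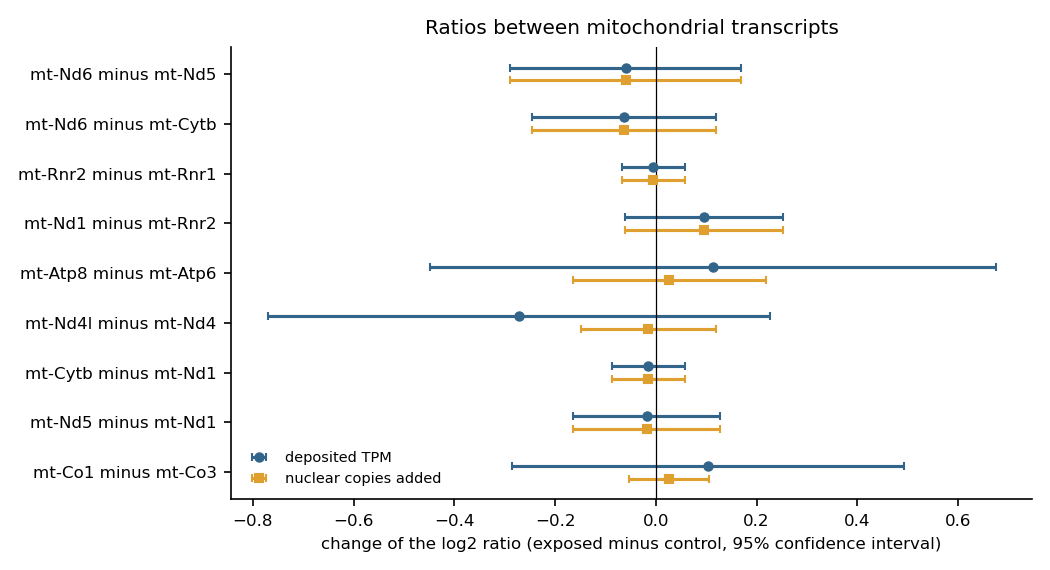
Difference between exposed and control dishes (n = 4 each) in the log2 ratio of 9 pairs of mitochondrial transcripts, with 95% confidence intervals, deposited (blue) and with nuclear copies added (orange). All intervals include 0, and the 3 widest deposited ones, for mt-Nd4l to mt-Nd4, mt-Atp8 to mt-Atp6 and mt-Co1 to mt-Co3, narrow when copies are added.

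As a share of all TPM, the 37 mitochondrial genes held 8.72%, 8.69%, 9.42% and 8.93% in control dishes and 6.96%, 5.99%, 7.69% and 7.52% in exposed dishes. Groups did not overlap. The nuclear copies held a further 5.14% ± 0.16 in control dishes and 4.15% ± 0.37 in exposed dishes (SD, n = 4 each), so that genes and copies together held 14.1% ± 0.45 and 11.2% ± 1.13. Leaving out mt-Atp8, the mitochondrial genes held 5.20% ± 0.11 and 4.03% ± 0.35.

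The share of each mRNA within the summed mitochondrial mRNAs was compared as well. mt-Atp8 held 42.4% ± 2.12 of their summed TPM in control dishes and 43.2% ± 1.58 in exposed dishes (SD, n = 4 each). mt-Co1 held 16.6% and 16.5%, and mt-Nd1 11.4% and 11.5%. With copies added, mt-Atp8 held 26.8% and 27.0%, mt-Co1 11.2% and 11.4%, mt-Co2 11.2% in each group, and mt-Atp6 10.9% and 10.8%. For each of the 13 mRNAs the dishes of both groups overlapped in this share, in the deposited values and with copies added.

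Other RNAs without a long conventional tail, or kept in the nucleus, were read in the same dishes, since they can move with RNA recovery. Neat1, a nuclear noncoding RNA, read 233, 251, 251 and 251 TPM in control dishes and 200.1, 182, 196 and 226 TPM in exposed dishes, with -0.30 on the log2 scale (adjusted p = 0.122, limma) with no overlap. Malat1, another nuclear noncoding RNA, read 209.8, 187, 169 and 181 TPM in control dishes and 136, 121, 133 and 176 TPM in exposed dishes, with -0.41 on the log2 scale (adjusted p = 0.139, limma) with overlap. Rn7sk, a small nuclear RNA made by RNA polymerase III, read 24.1, 28.2, 27.6 and 23.2 TPM in control dishes and 16.8, 8.54, 13.4 and 20.2 TPM in exposed dishes, with -0.82 on the log2 scale (adjusted p = 0.133, limma) with no overlap. All 3 were lowest in exposed replicate 2, the dish with the lowest mitochondrial share. Rmrp went from 8.01 ± 5.04 to 2.63 ± 2.21 TPM and Rpph1 from 1.21 ± 0.74 to 1.61 ± 1.85 TPM (SD, n = 4 each), with overlap in both. The 9 histone genes with symbols from Hist1h to Hist4h summed to 6.63 ± 3.00 and 5.82 ± 1.00 TPM (SD, n = 4 each). Another 95 genes, with symbols starting H1f, H2a, H2b, H3c or H4c, summed to 1517 ± 56.9 and 1545 ± 36.1 TPM (SD, n = 4 each). Those symbols cover replication-dependent histone genes and others. The part of RNA recovery or quality in the mitochondrial values was not tested.

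**Figure D4:**
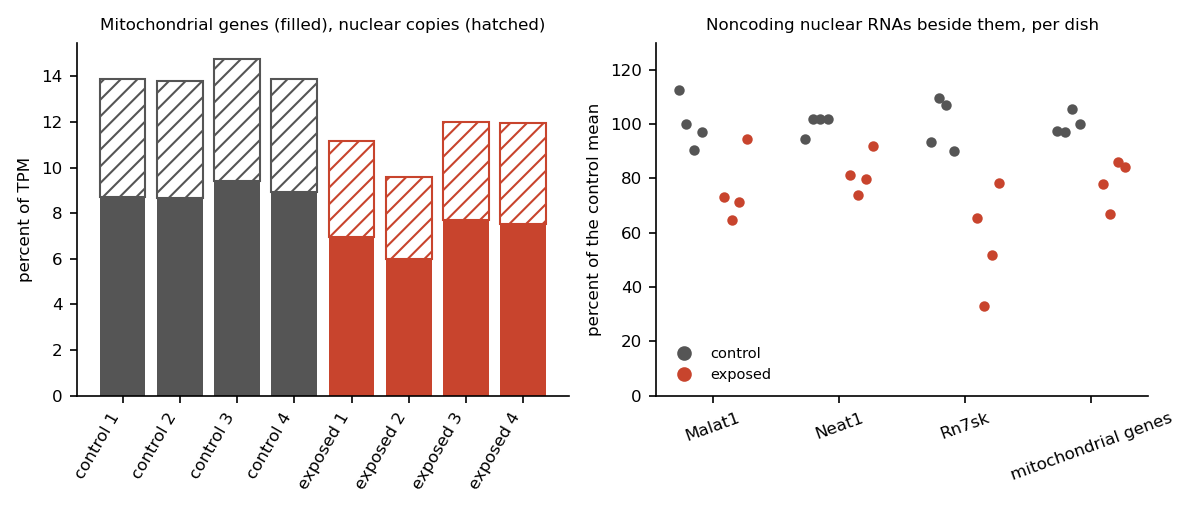
Left, percent of TPM in each dish held by mitochondrial genes (filled) and by their nuclear copies (hatched), together 13.8% to 14.8% in control dishes and 9.61% to 12.0% in exposed dishes. Right, Malat1, Neat1, Rn7sk and the mitochondrial genes in each dish as percent of the control mean, with exposed dishes (red) lower than control dishes (grey) except where Malat1 overlaps.

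Proteins that make, cut and degrade mitochondrial RNA are encoded in the nucleus, and 35 such genes were listed, all of which were tested. By limma, 0 passed the adjusted threshold of 0.05. Without adjustment, 1 was lower and 4 were higher, against 3.65% and 12.0% of all tested genes. No gene lay wholly below the control dishes and 2 lay wholly above them, Supv3l1 and Lrpprc, which was so for 8.01% of all tested genes. The median log2 fold change of the list was 0.039.

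Among the 14 factors of transcription and copying, 0 were lower and 0 higher by unadjusted p-value. Polrmt, the mitochondrial RNA polymerase, was 18.4 ± 0.76 TPM in control and 19.0 ± 0.57 TPM in exposed dishes, and Tfam, which packs the genome and starts transcription, 46.0 ± 2.86 and 47.9 ± 1.90 TPM (SD, n = 4 each). The 2 lowest p-values toward lower levels here were those of Mterf1a, a termination factor family member, at -0.14 (adjusted p = 0.485, limma), and Polg, the DNA polymerase, at -0.089 (adjusted p = 0.495, limma). Their dishes overlapped.

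Among the 13 factors of cleavage, 1 was lower and 2 higher by unadjusted p-value. Fastk, of a family of RNA-binding proteins of the mitochondrion, read 57.6, 61.1, 63.3 and 59.7 TPM in control dishes and 52.0, 54.5, 48.3 and 57.7 TPM in exposed dishes. The groups met at the edge only, and its log2 fold change was -0.18 (adjusted p = 0.160, limma). Fastkd3 of the same family read 18.5, 15.6, 15.4 and 16.5 TPM in control dishes and 21.4, 20.8, 22.3 and 17.6 TPM in exposed dishes, with 0.30 on the log2 scale (adjusted p = 0.140, limma). Grsf1, a protein of mitochondrial RNA granules, was 68.6 ± 2.03 and 72.5 ± 1.27 TPM (SD, n = 4 each), at 0.079. Among the 8 factors of tailing, stability and decay, 0 were lower and 2 higher. Supv3l1, the helicase of the mitochondrial degradosome, read 26.0, 26.1, 26.3 and 26.7 TPM in control dishes and 28.0, 28.2, 30.4 and 28.3 TPM in exposed dishes, at 0.12 (adjusted p = 0.165, limma) with no overlap. Lrpprc, which stabilises mitochondrial mRNAs, went from 49.9 ± 0.90 to 52.9 ± 2.25 TPM (SD, n = 4 each), at 0.082 (adjusted p = 0.301, limma). Scaled by median of ratios, 3 factors were lower and 2 higher, against 6.22% and 5.54% of all tested genes. Rescaled to the TPM outside mitochondrial genes and copies, 3 were lower and 1 higher, against 7.90% and 3.22%.

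The labelled cell type was read from its markers. Of 13 hepatocyte markers, 10 lay at 1 TPM or more in every dish, among them Hnf4a (187 TPM in control dishes) and Ttr (358 TPM), and Apoa2, Fgb and Ahsg were at or near 0. Cholangiocyte markers were present too, with 4 of 5 at 1 TPM or more, Krt19 at 1153 TPM, and Epcam near 0. Of 7 stellate cell or fibroblast markers only Vim was, endothelial and erythroid markers reached 0 of 4 and 0 of 3, and of 5 macrophage markers only Cd68 was, with Adgre1 and Clec4f at 0. Summed levels in control and exposed dishes were 5630 to 5889 and 5974 to 6199 TPM for hepatocyte markers, 1583 to 1683 and 1606 to 1724 TPM for cholangiocyte markers, and 1306 to 1403 and 1382 to 1510 TPM for stellate cell or fibroblast markers. Krt8 (2248 and 2361 TPM) and Krt18 (1905 and 2029 TPM), keratins that other epithelia also make, held most of the hepatocyte sum. Both keratins were higher in every exposed dish than in every control dish, as were 8.01% of all tested genes. Of the secreted liver proteins, Alb (55.1 and 49.7 TPM), Ttr (358 and 348 TPM) and Apoa1 (4.54 and 3.77 TPM) had lower means in exposed dishes, with overlap in each. Apob (207 and 214 TPM), Trf (823 and 854 TPM), Serpina1a (5.66 and 5.945 TPM) and Serpina1b (4.73 and 4.885 TPM) had higher means there. The part of these markers in the mitochondrial values was not tested.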

How the data were processed

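Poly(A)-selected libraries (TruSeq Stranded mRNA) from 4 control and 4 exposed dishes were sequenced by the authors on a NovaSeq in pairs of 150 bp. The deposited tables hold TPM, 1 table of 55401 genes per dish. Per the labels, the submitters' processing notes name Trimmomatic 0.39, STAR 2.7.4a, RSEM 1.3.3 and mm10. The annotation and the strand setting are not given in the sources used here. TPM keeps no depth, so counting error is unknown and no interval on counts is given.

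Genes with TPM of at least 1 in at least 4 dishes (12122) were compared on log2(TPM + 1) with limma 3.58.1 (R 4.3.3; lmFit and eBayes, trend allowed) and adjusted by Benjamini-Hochberg over all tested genes, with a threshold of 0.05. A fold change on this scale understates that of low genes. Ratios of 9 pairs were compared by exact permutation, with intervals from Student's t with pooled variance. Positions came from GENCODE M21 (GRCm38), which matched 55141 identifiers and listed 37 genes on chromosome M. Nuclear copies were found among annotated transcripts with BLAST 2.17.0+, and their TPM was added to their mitochondrial gene as an alternative. In simulated data with 12029 genes tested, 97.5% of 198 genes given a log2 change of 1 were recovered, with 13 false calls among the other genes. Recovery of smaller changes, such as the -0.64 to -0.27 of the 15 mitochondrial genes, was not tested.

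The genes, pairs and lists were chosen with earlier results of these data known. All mRNAs and rRNAs are named, and of the factor list the 3 lowest p-values in either direction. Polrmt, Tfam, Lrpprc and genes that changed call without a dish were named after their values were seen. Dishes of 1 batch of cells are the replicates, so p-values measure the spread between dishes. As alternatives, the pseudocount, filter, scaling, limma trend and nuclear copies were varied, a replicate block was fitted and each dish was left out.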

Additional observations from a re-analysis of the deposited data

Results flagged for a closer look

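Dixon's test for a single outlying value marked 1 dish in 6 of the 76 groups of 4 dishes examined, and it marks about 1 in 20 by chance. Among the mitochondrial values, mt-Co2 was 516.4 TPM in 1 exposed dish against 617.8 to 622.4 in the others, and the log2 ratio of mt-Rnr2 to mt-Rnr1 was -0.06453 in 1 exposed dish against -0.1218 to -0.114. The share of TPM in mitochondrial genes and copies was 14.75% in 1 control dish against 13.81% to 13.9%. Among nuclear genes, Neat1 was 232.7 TPM in 1 control dish against 251 to 251.3, and Supv3l1 was 30.35 TPM in 1 exposed dish against 28.04 to 28.3. The histone genes with symbols from Hist1h to Hist4h summed to 11.07 TPM in 1 control dish against 4.67 to 5.73.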

How the results depend on the processing

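All 15 mitochondrial genes kept a negative log2 fold change under the other pseudocount, filter, scalings, limma without a trend, nuclear copies added, the replicate block and each left-out dish. Of all genes, 1 (1110028F11Rik) passed the adjusted threshold of limma with median-of-ratios scaling, with rescaling or without a trend, and 0 to 6 genes passed it with a dish left out: 6 without Opti-ELF-WMF replicate 2 (mt-Nd1, mt-Nd2, mt-Co1, mt-Cytb, Gm10925 and 1110028F11Rik), 2 without control replicate 2 (Fgfr3 and Gm15446) and 1 without control replicate 3 (Gm7329). The difference in mitochondrial share of TPM, -1.90 percentage points, was -2.893 with copies counted and -1.172 without mt-Atp8, a choice made after seeing the data, and -2.118 to -1.553 with a dish left out. Both of the first follow from the genes summed. Otherwise the cause of these changes was not tested. Of the factor list, 3 were lower with median-of-ratios scaling and 3 with rescaling, and 2 and 1 higher. Of all tested genes, 6.22% and 7.90% were lower with these scalings, and 5.54% and 3.22% higher. With a dish left out 1 to 2 factors were lower (2 without Opti-ELF-WMF replicate 2, control replicate 1 or control replicate 3) and 3 to 5 higher. Of all tested genes, 2.76% to 4.29% were lower in these fits, and the share that was higher was not counted.

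With a dish left out, 14 to 15 mitochondrial genes were lower by unadjusted p-value (2.76% to 4.29% of all tested genes), 11 to 14 did not overlap (2.47% to 4.04%), and the mRNA median was -0.414 to -0.302. With every gene above 0 in the fit, 14 were lower by unadjusted p-value (3.27% of all). Pair differences ran from -0.0788 to 0.257 for mt-Atp8 to mt-Atp6 (negative without Opti-ELF-WMF replicate 4), -0.0079 to 0.208 for mt-Co1 to mt-Co3 (the same dish), -0.0370 to 0.0045 for mt-Cytb to mt-Nd1 (positive without Opti-ELF-WMF replicate 1), -0.0485 to 0.0196 for mt-Nd5 to mt-Nd1 (positive without that dish or control replicate 4), and -0.0206 to 0.0145 for mt-Rnr2 to mt-Rnr1 (positive without Opti-ELF-WMF replicate 2 or control replicate 3), and kept their sign for mt-Nd6 to mt-Nd5 (-0.120 to -0.0044), mt-Nd6 to mt-Cytb (-0.107 to -0.016), mt-Nd4l to mt-Nd4 (-0.393 to -0.148) and mt-Nd1 to mt-Rnr2 (0.054 to 0.141).

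Replicate numbers did not pair the dishes: deviations of same-numbered dishes correlated by -0.042 to 0.026 across genes, and 0 of 8 dishes correlated best with their own number. With the replicate block, the factor list had 2 higher genes in place of 4, and the share of all tested genes that were higher was not counted. The share difference was -1.90 and the mRNA median -0.37. Under the block, 15 mitochondrial genes were lower by unadjusted p-value (3.79% of all tested genes) and 12 were lower in every same-numbered pair (6.20%). Across genes, 0 passed the adjusted threshold, as without it. The pairs of transcripts could not change call, since the smallest exact p under the block is 0.125.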
